A study of Mus musculus with 11 samples.

Results

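The complement components, collectins and complement receptors are 37 listed genes, chosen by gene symbol and read here in RNA of LSEC, the liver sinusoidal endothelial cells, which line the capillaries of the liver and are perforated by fenestrae. Of these, 35 were measured on the arrays, each by the brightest transcript cluster of its symbol, among 22206 transcript clusters in all. C3 and Cfd were not analysed here.

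Both groups of mice carried floxed Atg5 alleles (Atg5lox/lox) and received a high fat diet for 2 weeks from the age of 8 weeks. The 6 wild type arrays came from Atg5lox/lox mice without Cre, and the 5 knockout arrays, titled autophagy deficient, from Atg5lox/lox;VE-cadherin-Cre mice. Atg5 is needed to build autophagosomes, and the VE-cadherin promoter drives Cre in endothelial cells, with blood cells of endothelial origin also known to be reached by such drivers. No group on a normal diet and no group with Cre alone was among these arrays, so neither the diet nor Cre itself has a control. The titles number the arrays as biological replicates. The labels do not say that each numbered replicate is a separate animal, so the p-values measure only the spread between these samples.

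Complement is a cascade of plasma proteins that marks particles for uptake, recruits leukocytes and can perforate membranes. Classical recognition starts with C1q bound to antibody, lectin recognition starts with collectins and ficolins bound to sugars, and the alternative pathway amplifies both through factor B, factor D and properdin, until the terminal components C5 to C9 assemble on a membrane. In the liver, hepatocytes secrete most soluble components, macrophages are a main source of C1q and properdin, and Kupffer cells, the resident macrophages, capture C3-coated particles through the receptor encoded by Vsig4.

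A few facts of the arrays touch every result. All 18 LSEC markers read above the mean of the antigenomic control probes, which match no mouse sequence, on all 11 arrays, and these markers averaged 11.79 ± 0.10 (SD) over the 6 wild type and 11.80 ± 0.13 over the 5 knockout arrays (exact permutation p = 0.939). Markers of other cell types were read too. The mean of 16 macrophage and Kupffer cell markers was 7.85 ± 0.42 (range 7.52 to 8.59) in wild type and 8.78 ± 0.80 (range 7.94 to 10.04) in knockout (exact permutation p = 0.026). The mean of 19 hepatocyte markers was 9.28 ± 0.57 (range 8.76 to 10.21) in wild type and 8.39 ± 0.63 (range 7.78 to 9.42) in knockout (exact permutation p = 0.0455). Of these markers, 15 of the 16 and all 19 read above the antigenomic mean on all 11 arrays. The 95th percentile of the antigenomic probes is a stricter limit. On all 11 arrays it was passed by 3 of the 16 (Id3, Msr1 and Clec1b), 7 of the 19 and 17 of the 18 LSEC markers. Id3, Msr1 and Clec1b were not called by the rule given below. Most macrophage and hepatocyte markers were thus close to background on at least 1 array. Knockout array 2 and wild type array 5 had the highest macrophage and the highest hepatocyte marker mean of their groups, and array 2 was the highest of all arrays in 17 of the 35 complement genes. Y-linked genes gave signal on 2 wild type arrays (3 and 6) and 1 knockout array (3). The intron control mean was high on wild type arrays 1 and 6 and knockout arrays 3 and 4, and did not differ between genotypes beyond its spread (5.40 ± 0.43 against 5.45 ± 0.30, exact permutation p = 0.840). Atg5 itself read 7.5 ± 0.09 in wild type and 7.60 ± 0.17 in knockout (exact permutation p = 0.245). Where its probes lie relative to the floxed part is not known here, so this value does not check the genotype.

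Levels below are RMA values on the log2 scale. Each difference is the knockout mean less the wild type mean on that scale, with the standard error (SE) from limma. Genes were called higher or lower by the study's own rule, which asks for a 1.5-fold change and for p to be 0.05 or less before adjustment, and limma's p was used for it. By this rule 8 of the 35 measured genes were called higher (C1qa, C1qb, C1qc, Colec10, Cfp, C6, C3ar1 and Vsig4) and 3 were called lower (Masp2, C9 and Vtn). Of all clusters 0.671% were called higher and 0.356% lower, 1.03% in either direction. After Benjamini-Hochberg adjustment of limma's p over all clusters, 0 of the 35 genes and 0 of all clusters (0.0%) passed 0.05, and the smallest adjusted p among the complement genes was 0.764. Without the fold, 13 of the 35 genes had an unadjusted limma p of 0.05 or less, against 6.39% of all clusters. The median difference of the 35 genes was 0.17 and that of all clusters -0.02, with 21 genes above 0 and 14 below, where 46.0% of all clusters lay above 0. In 0 of the 35 genes were the groups free of overlap, a pattern seen in 0.473% of all clusters.

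**Figure D1:**
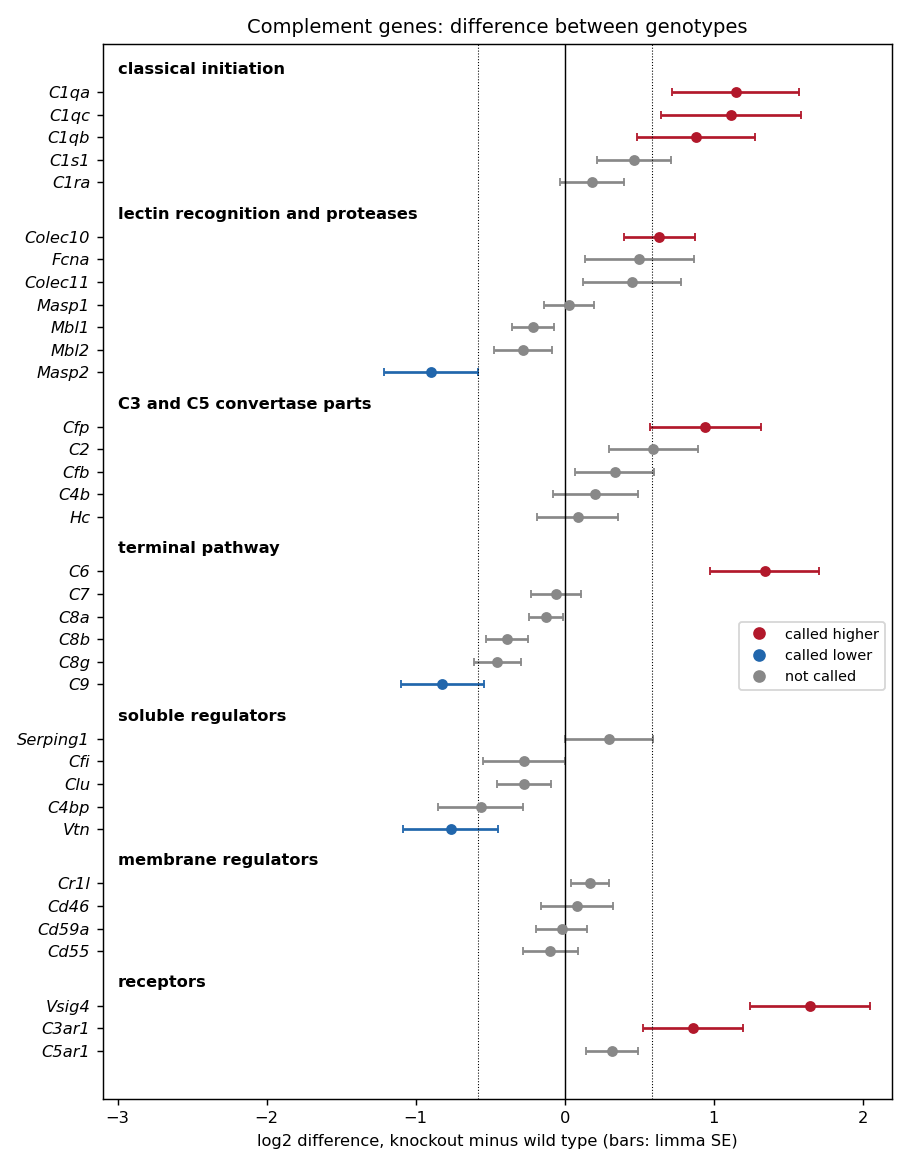
Difference between knockout and wild type on the log2 scale (horizontal axis) for the 35 measured complement genes, ordered by role, with bars of 1 limma SE and dotted lines at a fold of 1.5. The 3 C1q chains, Cfp, C6, C3ar1, Vsig4 and Colec10 lie to the right of the dotted line and Masp2, C9 and Vtn to the left, while C2 passes the fold but not the p.

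All 5 classical starters had differences above 0, and the 3 chains of C1q (C1qa, C1qb, C1qc), the antibody-sensing molecule, were called higher by 2.22-, 1.84- and 2.17-fold. C1ra and C1s1, the proteases that C1q activates, were not called. The 3 chains are encoded side by side: in the RefSeq gene table C1qb, C1qc and C1qa are direct neighbours. The 250 bases before the annotated starts of C1qb (chr4:136886201-136886450, minus strand) and C1qc (chr4:136892915-136893164, minus strand) are shown because these neighbouring genes had similar values from array to array. They are RefSeq sequences of build GRCm38.p6, written 5′ to 3′. Capitals mark a match to GAGGAAG, read on either strand, the core of sites for the myeloid factor PU.1.
C1qb: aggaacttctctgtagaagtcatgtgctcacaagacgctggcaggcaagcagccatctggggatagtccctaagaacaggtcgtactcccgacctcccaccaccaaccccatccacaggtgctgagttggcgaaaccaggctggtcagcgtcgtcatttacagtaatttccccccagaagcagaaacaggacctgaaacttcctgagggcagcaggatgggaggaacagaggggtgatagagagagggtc
C1qc: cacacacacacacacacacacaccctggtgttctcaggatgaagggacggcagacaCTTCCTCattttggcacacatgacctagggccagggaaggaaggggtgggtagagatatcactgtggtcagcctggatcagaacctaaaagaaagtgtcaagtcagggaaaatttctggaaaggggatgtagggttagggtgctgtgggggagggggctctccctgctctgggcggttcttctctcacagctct
The match in C1qc begins 194 bases before the start, and none of the motifs searched was found in the C1qb window. GAGGAAG is common: 10.6% of 32851 RefSeq promoter windows of this length hold it on either strand, as do 2 of the 26 complement genes with an entry (C1qc and Fcna). The motifs were chosen after the values had been seen, and a match describes letters only.

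C1qa read 7.63 at the lowest, 8.43 at the median and 9.44 at the highest of the wild type arrays, and 9.69, 11.18, 8.51, 8.90 and 9.56 on knockout arrays 1 to 5. The means were 8.42 ± 0.65 (SD, n = 6) and 9.57 ± 1.02 (SD, n = 5), a difference of 1.15 (SE 0.43, limma p = 0.0184, exact permutation p = 0.0368). Knockout arrays 1, 2 and 5 were above every wild type array, and arrays 3 and 4 lay within the wild type range.

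C1qb read between 7.96 and 9.85 in wild type with a median of 9.05, and 9.81, 11.11, 8.99, 9.09 and 9.78 in knockout. Its means were 8.88 ± 0.71 (SD, n = 6) and 9.76 ± 0.85 (SD, n = 5), and its difference of 0.88 (SE 0.40) had a limma p of 0.0439 and an exact permutation p of 0.106. Knockout array 2 alone exceeded the wild type range, so the groups overlapped widely.

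C1qc read between 6.34 and 8.49 in wild type with a median of 7.34, and 8.33, 10.07, 7.38, 7.69 and 8.47 in knockout. Its means were 7.27 ± 0.82 (SD, n = 6) and 8.39 ± 1.04 (SD, n = 5), and its difference of 1.12 (SE 0.47) had a limma p of 0.0333 and an exact permutation p of 0.0758. Again knockout array 2 alone stood above all wild type arrays, and wild type arrays 1 and 6 were the lowest of all 11. When each array was left out in turn, C1qa was called in 11 of 11 fits (difference 0.75 to 1.41), C1qc in 5 (0.70 to 1.37) and C1qb in 4 (0.54 to 1.08). C1qb was no longer called when any of wild type arrays 1, 2, 3 and 6 or of knockout arrays 1, 2 and 5 was left out. C1qc was no longer called when any of wild type arrays 1, 3 and 6 or of those same knockout arrays was left out. Without knockout array 2 the 3 differences were 0.75 for C1qa, 0.54 for C1qb and 0.70 for C1qc.

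The C1q chains varied with the macrophage markers and with the intron controls. After subtraction of the group means, C1qa correlated with the macrophage marker mean at r = 0.966 over the 11 arrays, C1qb at 0.908 and C1qc at 0.947. Without the 2 arrays farthest from the median of that marker mean these values were 0.914, 0.839 and 0.904. Over all 11 arrays the correlations with the intron control mean were -0.834, -0.907 and -0.880, and the uncalled genes C1ra (-0.888) and Masp1 (-0.887) had similar ones. The C1q chains also correlated with the stellate and mesenchymal (0.749 to 0.765), LSEC (0.693 to 0.780) and hepatocyte (0.692 to 0.730) marker means. Without the 2 arrays farthest from each median these were 0.583 to 0.651, 0.422 to 0.556 and 0.067 to 0.109. The points are single arrays normalized together, and these correlations are descriptions. In a fit that also held the macrophage marker mean, the differences were -0.06 (SE 0.18) for C1qa, -0.17 (SE 0.24) for C1qb and -0.19 (SE 0.22) for C1qc, and with the intron control mean as a covariate they were 1.23, 0.96 and 1.21. In RNA from bulk samples, fewer cells of a type and less RNA per cell cannot be told apart.

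**Figure D2:**
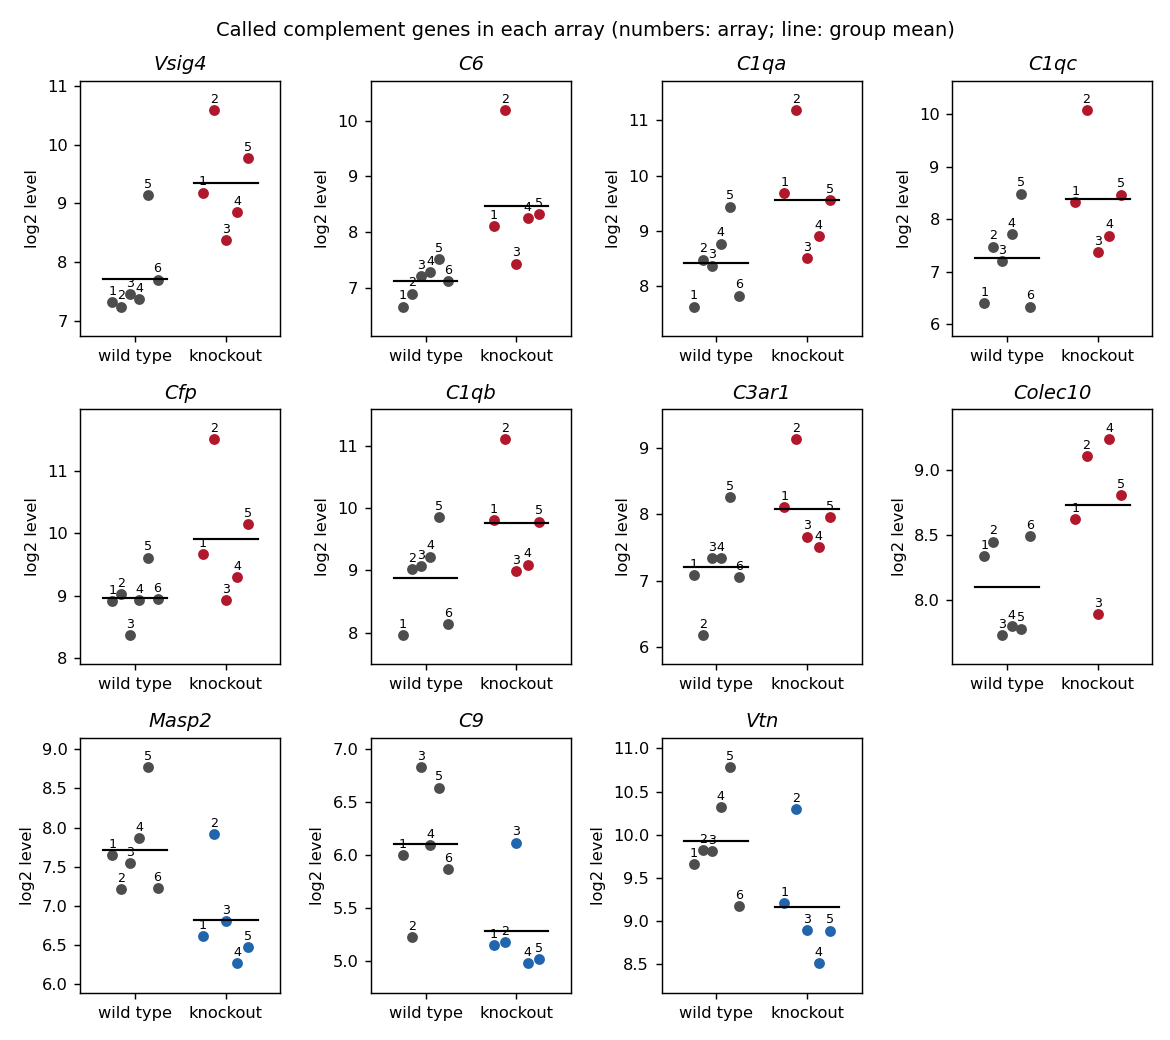
Log2 level (vertical axis, a separate scale per gene) of the 11 called genes on each array, numbered within its genotype, with a line at the group mean. Knockout array 2 is the highest array in 7 of the 8 genes called higher, and knockout array 3 lies among the wild type values of C9 at 6.12.

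The serine protease genes C1ra and C1s1 differed by 0.18 (SE 0.22, exact permutation p = 0.474) and 0.47 (SE 0.25, exact permutation p = 0.141). C1s1 passed the rule without wild type array 5 (0.61) or knockout array 3 (0.65). Whether the probes of these genes and of C4b, Cd55 and Cd59a separate them from the near-identical copies C1rb, C1s2, C4a, Cd55b and Cd59b was not checked, so these 5 values may mix both copies.

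The lectin genes split. Colec10, a liver collectin, was called higher by 1.55-fold and Masp2, the protease that lectin complexes use to cleave C4 and C2, was called lower by 1.86-fold, while the mannose-binding lectins Mbl1 and Mbl2, the collectin gene Colec11, the ficolin gene Fcna and the protease gene Masp1 were not called. The median over these 7 genes was 0.03.

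Colec10 read between 7.73 and 8.49 in wild type with a median of 8.07, and 8.62, 9.11, 7.89, 9.24 and 8.81 in knockout. Its means were 8.10 ± 0.36 (SD, n = 6) and 8.73 ± 0.53 (SD, n = 5), a difference of 0.64 (SE 0.24, limma p = 0.0187, exact permutation p = 0.039). The 4 knockout arrays other than array 3 were above every wild type array. Colec10 differed from the C1q pattern in its arrays: it was highest on knockout array 4 and low on wild type array 5, and its correlation with the macrophage marker mean within groups was 0.216, or -0.596 without the 2 farthest arrays. In mouse liver Colec10 is known from hepatocytes and stellate cells, and the mean of 12 stellate and mesenchymal markers was 8.45 ± 0.41 (SD, n = 6) against 8.79 ± 0.38 (SD, n = 5), with an exact permutation p of 0.182. The part of stellate cells in the Colec10 difference was not tested. Colec10 was called in 6 of 11 fits with an array left out (0.51 to 0.85), failing when wild type array 3, 4 or 5 was dropped, and likewise for knockout arrays 2 and 4. Knockout array 3, at 7.89, is the knockout array with Y-linked signal, and the 2 wild type arrays with that signal averaged 8.11. The difference was 0.85 among the arrays without that signal. It was 0.58 with sex as a covariate and 0.56 after repeated quantile normalization, not called in either.

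Masp2 read between 7.21 and 8.77 in wild type with a median of 7.60, and 6.61, 7.92, 6.80, 6.26 and 6.47 in knockout. Its means were 7.71 ± 0.58 (SD, n = 6) and 6.81 ± 0.65 (SD, n = 5), a difference of -0.90 (SE 0.32, limma p = 0.0139, exact permutation p = 0.0411). All knockout arrays except array 2 lay below the lowest wild type array, and the call stood in 11 of 11 fits with an array left out (-1.17 to -0.68). Masp2 followed the hepatocyte markers closely within groups, at r = 0.973 (0.936 without the 2 farthest arrays). In a fit that also held the hepatocyte marker mean its difference was -0.02 (SE 0.14), and with the macrophage marker mean instead it was -1.62 (SE 0.26).

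Mbl1, which binds mannose on microbes, read between 5.86 and 6.23 in wild type with a median of 6.09, and 5.38, 6.18, 5.96, 5.72 and 5.98 in knockout. Its difference of -0.21 (SE 0.14, exact permutation p = 0.175) did not exceed the spread. Of the other lectin genes, Mbl2 differed by -0.28 (SE 0.20), Masp1 by 0.03 (SE 0.16), Colec11 by 0.45 (SE 0.33) and Fcna by 0.50 (SE 0.36). Colec11 and Fcna were both highest on knockout array 2, at 9.51 and 10.69, and their exact permutation p-values were 0.279 and 0.258. Colec11 passed the rule without knockout array 3 (0.71).

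Among the convertase parts, the enzymes and cofactors that cleave C3 and C5, only Cfp was called. All 5 measured genes had differences above 0, with a median of 0.34. Cfp encodes properdin, which stabilizes the alternative convertase.

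Cfp read between 8.37 and 9.61 in wild type with a median of 8.94, and 9.67, 11.51, 8.93, 9.30 and 10.14 in knockout. Its means were 8.96 ± 0.39 (SD, n = 6) and 9.91 ± 1.0 (SD, n = 5), a difference of 0.95 (SE 0.37, fold 1.93, limma p = 0.0249, exact permutation p = 0.0346). Knockout arrays 1, 2 and 5 were above the wild type range, with array 2 far above the rest. The call stood in 8 of 11 fits, failing when wild type array 3, knockout array 2 (difference 0.55) or knockout array 5 was dropped. Cfp correlated with the macrophage marker mean at 0.951 within groups, or 0.852 without the 2 farthest arrays, and with that mean as a covariate its difference was -0.09 (SE 0.18).

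C2, which with C4b forms the classical convertase, lay just outside the rule. It read between 6.45 and 7.38 in wild type with a median of 6.75, and 7.45, 8.67, 6.78, 7.28 and 7.07 in knockout. The difference was 0.59 (SE 0.30) and the fold 1.51, but limma's p was 0.0682 and the exact permutation p 0.106. Only knockout arrays 1 and 2 were above the wild type range. C2 passed the rule without wild type array 2 (0.69), wild type array 5 (0.70) or knockout array 3 (0.76).

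C4b read between 8.13 and 9.17 in wild type with a median of 8.58, and 8.68, 9.72, 8.02, 8.90 and 8.76 in knockout. The difference was 0.20 (SE 0.28, exact permutation p = 0.537), with the knockout values spread over and beyond the wild type range on both sides. Cfb, the protease of the alternative convertase, read between 6.79 and 7.96 in wild type with a median of 7.58, and 8.04, 8.75, 7.15, 7.60 and 7.67 in knockout, a difference of 0.34 (SE 0.26, exact permutation p = 0.329). Knockout arrays 1 and 2 lay above the wild type range and the other knockout arrays inside it. Hc, which encodes C5, differed by 0.09 (SE 0.27) and read above the antigenomic mean on 5 of 6 wild type arrays. It was the only member below that mean on any array.

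The terminal genes went in opposite directions, with C6 called higher by 2.54-fold and C9 called lower by 1.77-fold. Their products join C5b, C7 and C8 in the membrane attack complex, in which C9 forms the ring. Of the 6 genes 5 were below 0, with a median of -0.25. The windows of C6 (chr15:4726960-4727209, plus strand) and C9 (chr15:6445096-6445345, plus strand) are shown because these components of 1 complex differed in direction (RefSeq, GRCm38.p6, 250 bases before the start). Capitals mark a match on either strand to TTGCNNAA, a form of the site of C/EBP factors, which are active in hepatocytes and myeloid cells.
C6: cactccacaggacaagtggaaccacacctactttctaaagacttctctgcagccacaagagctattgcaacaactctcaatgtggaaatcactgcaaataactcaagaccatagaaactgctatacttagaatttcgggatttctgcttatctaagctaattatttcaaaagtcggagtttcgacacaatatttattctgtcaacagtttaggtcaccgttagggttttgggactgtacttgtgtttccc
C9: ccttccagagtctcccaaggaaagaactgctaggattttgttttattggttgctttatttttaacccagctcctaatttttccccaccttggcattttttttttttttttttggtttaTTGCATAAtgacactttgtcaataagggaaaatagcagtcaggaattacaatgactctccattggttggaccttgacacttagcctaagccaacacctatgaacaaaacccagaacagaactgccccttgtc
The match in C9 begins 132 bases before the start. TTGCNNAA stands in 9.56% of all windows and in 2 of the 26 complement genes with an entry (C9 and C1s1). CAAAGTCC, a form of the HNF4 site, stood in 1.2% of all windows and in 0 of the 26. Consensus sites of HNF1 and NF-kB were searched too and were found in 2 of the 26 (C4bp and Hc) and in 0, against 0.371% and 0.980% of all windows. Both strands were searched for each of the 5 motifs.

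C6 read between 6.67 and 7.52 in wild type with a median of 7.18, and 8.11, 10.18, 7.44, 8.26 and 8.33 in knockout. Its means were 7.12 ± 0.30 (SD, n = 6) and 8.46 ± 1.02 (SD, n = 5), a difference of 1.34 (SE 0.37, limma p = 0.00287, exact permutation p = 0.0043). The 4 knockout arrays other than array 3 were above every wild type array, and array 3 was above all but 1. The call stood in 11 of 11 fits with an array left out (0.91 to 1.6, the lowest without knockout array 2). C6 correlated with the macrophage marker mean at 0.888 within groups, falling to 0.626 without the 2 farthest arrays. With that mean as a covariate the difference was 0.39 (SE 0.24) and was not called.

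C9 read between 5.23 and 6.83 in wild type with a median of 6.05, and 5.15, 5.18, 6.12, 4.98 and 5.02 in knockout. Its means were 6.11 ± 0.57 (SD, n = 6) and 5.29 ± 0.47 (SD, n = 5), a difference of -0.82 (SE 0.28, limma p = 0.0108, exact permutation p = 0.0325). All knockout arrays except array 3 lay below the lowest wild type array. The call stood in 11 of 11 fits with an array left out (-1.03 to -0.68). Array 3 is the knockout array with Y-linked signal, and wild type array 3, also with that signal, was the highest wild type array. Wild type array 6, the other with that signal, read 5.87, below the wild type median. Among the 8 arrays without Y-linked signal the difference was -0.91, and with sex as a covariate -0.74. C9 was above the antigenomic mean on all 11 arrays and above the 95th percentile of the antigenomic probes on 0 of them, so it was read close to background. This limit holds in part for other called genes. On the 6 wild type arrays C6 and C3ar1 passed that percentile on 0, and Vsig4 and C1qc on 1. Masp2 passed it on 1 wild type and 0 knockout arrays. Of the 8 genes called higher, 2 (C1qb and Cfp) passed it on all 11 arrays. The correlation of C9 with the hepatocyte marker mean within groups was 0.342, and with the macrophage marker mean -0.139.

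C8g and C8b, which encode chains of C8, had lower means in knockout with an unadjusted limma p of 0.05 or less, but folds under 1.5. C8g read between 9.10 and 9.87 in wild type with a median of 9.57, and 8.87, 9.09, 9.15, 9.02 and 9.25 in knockout, a difference of -0.45 (SE 0.16, fold 1.37, limma p = 0.0133, exact permutation p = 0.0346). The knockout values were tightly grouped, and 3 of 5 were below the lowest wild type array. C8b differed by -0.39 (SE 0.14, fold 1.31, limma p = 0.0164, exact permutation p = 0.0303), with means of 6.74 ± 0.24 (SD, n = 6) and 6.35 ± 0.22 (SD, n = 5). C8a differed by -0.12 (SE 0.11) and C7 by -0.06 (SE 0.17).

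Of the soluble regulators, Vtn was called lower and 4 of the 5 genes were below 0 (median -0.27). Vitronectin, its product, is an adhesion protein that also keeps the terminal complex out of membranes. Vtn read between 9.17 and 10.78 in wild type with a median of 9.82, and 9.21, 10.30, 8.90, 8.51 and 8.89 in knockout. Its means were 9.93 ± 0.56 (SD, n = 6) and 9.16 ± 0.68 (SD, n = 5), a difference of -0.76 (SE 0.32, fold 1.70, limma p = 0.0318, exact permutation p = 0.0714). Knockout arrays 3, 4 and 5 were below every wild type array, while knockout array 2 was above the wild type mean. The call stood in 6 of 11 fits with an array left out (-1.05 to -0.59) and failed when wild type array 4 or 5, or any of knockout arrays 3 to 5, was dropped. Vtn correlated with the hepatocyte marker mean at 0.914 within groups (0.701 without the 2 farthest arrays), and with the macrophage marker mean at 0.876 (0.874). Its difference was 0.06 (SE 0.20) with the hepatocyte mean as a covariate and -1.57 (SE 0.22) with the macrophage mean.

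C4bp, which inactivates C4b together with factor I, read between 5.89 and 7.63 in wild type with a median of 6.88, and 6.29, 6.95, 6.41, 5.86 and 5.61 in knockout. The difference of -0.56 (SE 0.29, exact permutation p = 0.128) was not called, but passed the rule without wild type array 2 or without knockout array 2 (-0.74 in both). Its knockout values reached below the wild type range on arrays 4 and 5 only. Clu, an extracellular chaperone that also binds terminal components, read between 11.27 and 12.35 in wild type with a median of 11.98, and 11.77, 11.77, 11.55, 11.19 and 11.79 in knockout, a difference of -0.27 (SE 0.18, exact permutation p = 0.199). Knockout array 4 alone was below the wild type range. Cfi, the protease factor I, differed by -0.27 (SE 0.27) and Serping1, the C1 inhibitor, by 0.30 (SE 0.30).

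Of the membrane regulators, which protect host cells from their own complement, 0 of 4 were called. Their differences ran from -0.10 to 0.17. Cr1l, the rodent convertase regulator Crry, read between 10.54 and 11.21 in wild type with a median of 11.11, and 11.30, 11.10, 11.15, 11.14 and 11.27 in knockout. Its difference was 0.17 (SE 0.13, exact permutation p = 0.186), with wild type array 2 below all others. Cd55, which speeds convertase decay, read between 10.85 and 11.84 in wild type with a median of 11.26, and 11.61, 10.82, 11.34, 11 and 11.22 in knockout, a difference of -0.10 (SE 0.18, exact permutation p = 0.647). The ranges of both genotypes nearly coincided.

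Cd46, a cofactor for cleavage of C3b and C4b, read between 5.30 and 6.70 in wild type with a median of 6.16, and 6.19, 6.0, 6.36, 6.10 and 6.16 in knockout, a difference of 0.08 (SE 0.24, exact permutation p = 0.768). All its knockout values lay inside the wild type range. Cd59a, which blocks C9 insertion, differed by -0.02 (SE 0.17). Cr1l, Cd55 and Cd59a were above the 95th percentile of the antigenomic probes on all 11 arrays, as were 12 of the 35 genes in all, so their levels were clear of background. Cd46 was above that percentile on 0 wild type and 0 knockout arrays, so it was read close to background.

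The receptors carried the largest change of the list. Vsig4, which binds C3b and iC3b on macrophages, was called higher by 3.13-fold and C3ar1, the receptor of the C3a fragment, by 1.82-fold. C5ar1, the receptor of C5a, was not called.

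Vsig4 read between 7.24 and 9.14 in wild type with a median of 7.41, and 9.18, 10.58, 8.37, 8.85 and 9.77 in knockout. Its means were 7.70 ± 0.72 (SD, n = 6) and 9.35 ± 0.86 (SD, n = 5), a difference of 1.65 (SE 0.40, limma p = 0.00119, exact permutation p = 0.0108). Wild type array 5 stood alone at 9.14, and every other wild type array was below all knockout arrays. The call stood in 11 of 11 fits with an array left out (1.34 to 1.93). Within groups it correlated with the macrophage marker mean at 0.891 (0.806 without the 2 farthest arrays). With that mean as a covariate the difference was 0.61 (SE 0.25), the only one of the 8 higher genes still called, while 7.39% of all clusters were called in that fit. With both marker means as covariates it was 0.62 and was not called.

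C3ar1 read between 6.18 and 8.25 in wild type with a median of 7.21, and 8.11, 9.13, 7.66, 7.5 and 7.95 in knockout. Its means were 7.21 ± 0.67 (SD, n = 6) and 8.07 ± 0.64 (SD, n = 5), a difference of 0.86 (SE 0.34, limma p = 0.0234, exact permutation p = 0.0498). As with Vsig4, every wild type array except array 5 was below all knockout arrays. The call stood in 9 of 11 fits and failed when wild type array 2 or knockout array 2 (0.60) was dropped. C3ar1 correlated with the macrophage marker mean at 0.777 and with the hepatocyte marker mean at 0.843 within groups. Its difference was 0.11 with the first as a covariate and 1.68 with the second.

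C5ar1 read between 6.82 and 7.76 in wild type with a median of 7.42, and 7.72, 8.20, 7.66, 7.58 and 7.43 in knockout, a difference of 0.31 (SE 0.17, exact permutation p = 0.134). Knockout array 2 alone was above the wild type range. The difference between the C5ar1 and the C3ar1 change was not tested.

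**Figure D3:**
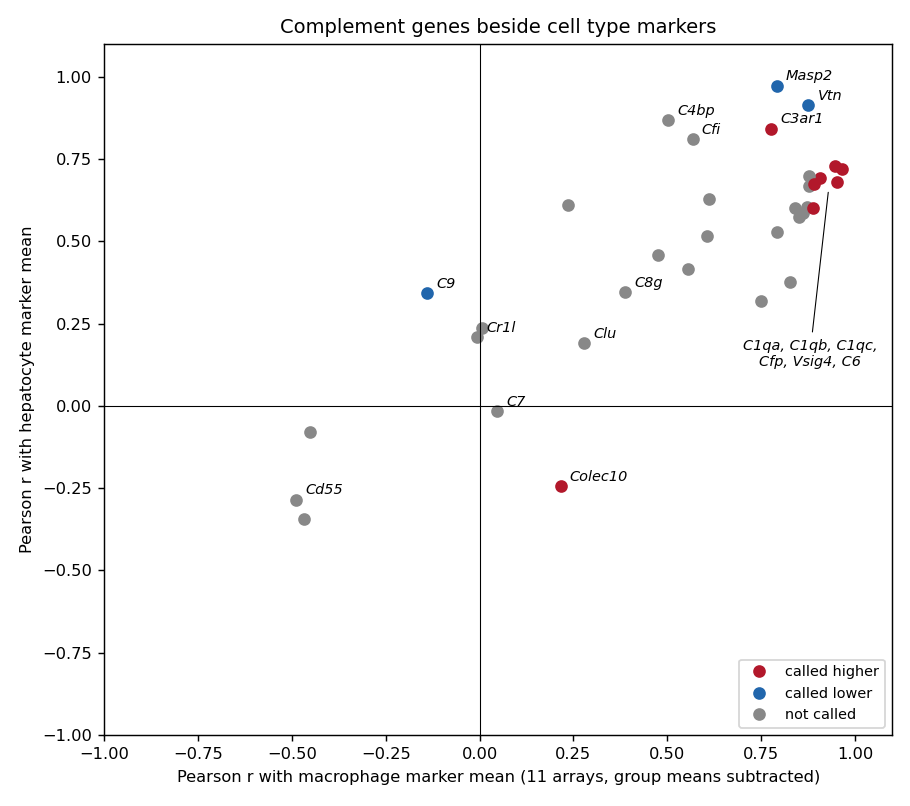
Pearson correlation of each of the 35 genes with the macrophage marker mean (horizontal axis) and with the hepatocyte marker mean (vertical axis) over 11 arrays, after subtraction of the group means. C1qa, C1qb, C1qc, Cfp, C6 and Vsig4 lie together at the right edge, Masp2 and Vtn at the top, and C9 and Colec10 apart from both. Genes not called lie close to the right edge too, among them Cfb, C2, C1ra and C4b (0.878, 0.877, 0.873 and 0.862 with the macrophage mean).

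In the plot of marker correlations C1qa, C1qb, C1qc, Cfp, C6 and Vsig4 correlated more with the macrophage than with the hepatocyte marker mean. So did Cfb, C2, C1ra and C4b, which were not called. Masp2 correlated more with the hepatocyte mean (0.973 against 0.792). Vtn (0.914 against 0.876) and C3ar1 (0.843 against 0.777) were also higher with the hepatocyte mean over all 11 arrays. Without the 2 farthest arrays Vtn had 0.701 with the hepatocyte and 0.874 with the macrophage mean, and C3ar1 0.456 and 0.662. Those 2 arrays were picked for each marker mean separately, so these values rest on different arrays and cannot be set against each other. The 2 marker means correlated with each other within groups at 0.754 (0.798 without the 2 farthest arrays), although between genotypes the macrophage mean was higher and the hepatocyte mean lower in knockout. As background, C1qa, C1qb, C1qc, Cfp and Vsig4 are known to be expressed by macrophages, and Masp2, Vtn and C9 by hepatocytes. The marker lists hold no complement gene, 11 of the 16 macrophage markers were called higher (median 1.01), and 13 of the 19 hepatocyte markers were called lower (median -0.96).

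When the hepatocyte marker mean was added to the fit, 12 genes were called higher and 0 lower, where 2.52% of all clusters were called, and with the macrophage marker mean 1 was called higher and 6 lower, where 7.39% were. With both, 1 was called higher (C3ar1, 1.12) and 2 lower (Colec11, -1.29, and Fcna, -1.34), with 4.96% of all clusters called. Because the marker means themselves differ between genotypes, these fits cannot fully separate genotype from marker content. Without knockout array 2 and wild type array 5, each the array of highest macrophage mean within its own genotype, 7 genes were called higher and 3 lower, and Colec10 was the call lost. Of all clusters 1.21% were called in that fit.

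**Figure D4:**
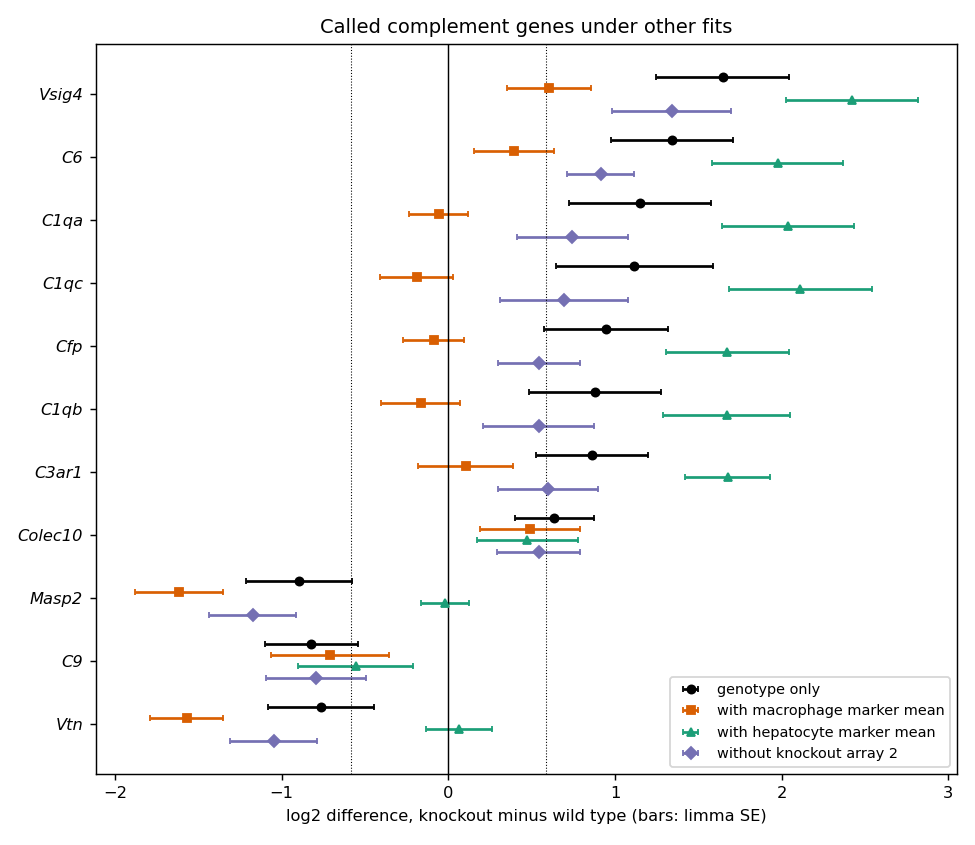
Log2 difference (knockout minus wild type, bars of 1 limma SE, dotted lines at a fold of 1.5) of the 11 called genes with genotype alone, with either marker mean as a covariate, and without knockout array 2. C1qa, C1qb, C1qc and Cfp lie at or just below 0 with the macrophage mean, Masp2 and Vtn at about 0 with the hepatocyte mean (-0.02 and 0.06), and Vsig4, C6, C3ar1 and Colec10 stay above 0 in all 4 fits.

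Other genes of the pathway were mostly not called. Of 29 other complement genes 26 were measured, 1 was called higher and 0 lower, with a median of 0.02 and 13 genes on each side of 0. The gene called was Itgb2, the shared beta chain of the complement receptors CR3 and CR4, with means of 7.33 ± 0.50 (SD, n = 6) and 8.08 ± 0.73 (SD, n = 5) and a difference of 0.75 (SE 0.32, limma p = 0.0329, exact permutation p = 0.0671). Of the other genes, the 4 with the smallest p were Ptx3, Crp, Apcs and C4a. The 3 pentraxins, which recognize microbes and bind C1q, were all below 0: Ptx3 differed by -0.25 (SE 0.11, exact permutation p = 0.0216), Crp by -0.50 (SE 0.22, exact permutation p = 0.0887) and Apcs by -0.39 (SE 0.20, exact permutation p = 0.104). C4a, the near-identical copy of C4b, differed by 0.56 (SE 0.30, exact permutation p = 0.139).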

How the data were processed

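Per the labels, total RNA of 11 LSEC samples was extracted with Trizol and biotinylated cDNA from 100 ng was hybridized to Clariom S Mouse arrays. The authors' deposited values are on a log2 scale (read from their range, 2.15 to 13.79) and were made with RMA in Affymetrix Expression Console, per the submitters' processing notes; tool versions were not given in these sources. This method equalizes value distributions between arrays and compresses weak signals. The number of arrays limits the precision. The 6640 control rows were left out, 22206 clusters were tested, and 0 columns were unmapped. Symbols came from the platform annotation (19572 clusters with 1 symbol, 0 with several, 2634 with none).

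The difference between genotypes was fitted over all clusters with lmFit and eBayes of limma 3.58.1 (R 4.3.3), and the same fit was also run on simulated data. Single values were tested with two-sided exact permutation tests over 462 splits (smallest possible p 0.0022). Arrays correlated at 0.951 to 0.992, and 0 pairs were identical. Members, gene lists and tests were chosen with earlier results of these data known. Each knockout array's value and the lowest, median and highest wild type value were given for called genes, the C1q chains, C4b and the 3 genes of smallest p per role, and of the other pathway genes those called and the 4 of smallest p were named. The deviations of same-numbered arrays correlated at -0.321 to 0.389, highest for the arrays numbered 2 and with no common sign, and numbers were treated as names. Promoter windows were from RefSeq (GRCm38.p6), where 26 of 35 genes matched. Sex was read from Y-linked genes alone. Alternatives covered left-out arrays, the block, normalization, centring, array weights, variance model, filter, clusters per symbol, call rule and covariates.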

Additional observations from a re-analysis of the deposited data

Results flagged for a closer look

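In 70 gene and genotype groups of 5 or 6 arrays, 4 held an array that stood apart from the rest of its group by Dixon's criterion, which chance meets in about 1 in 20 groups. Vsig4 read 9.14 on wild type array 5, where the next highest wild type array read 7.70. C9 read 6.12 on knockout array 3, where the next highest knockout array read 5.18. C7 read 6.40 on wild type array 5, against 5.90 on the next array. Cr1l read 10.54 on wild type array 2, the lowest, against 10.98 on the next array.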

How the results depend on the processing

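Leaving out each array in turn gave 3 to 11 genes called higher (3 without knockout array 2, 4 without wild type array 3, 5 without knockout array 5, 11 without knockout array 3), 2 to 4 called lower, a median of 0.07 to 0.20, and 0 to 2 other pathway genes called higher and 0 to 2 lower. With the replicate number as a block, which drops wild type array 6, 6 genes were called higher and 3 lower (median 0.15); C1qb (0.73) and C3ar1 (0.83) were lost. Repeated quantile normalization gave 6 higher and 3 lower, as did sex as a covariate, and in both C1qb and Colec10 were lost. Array weights gave 4 higher and 4 lower, and 0 and 1 pathway genes. The 4 arrays of high intron control signal gave 5 higher, and 0 and 1 pathway genes higher and lower. Of all clusters, 0.77% to 1.41% were called in either direction with 1 array left out (1.18% without knockout array 2, 1.41% without knockout array 3). That share was 1.13% with the block, 1.01% after repeated quantile normalization and 1.03% with sex as a covariate. It was 1.1% with array weights and 1.28% on the 4 arrays of high intron control signal. An adjusted p of 0.05 gave 0 and 0 (pathway 0), and an unadjusted p with no fold 5 lower (pathway 2).

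When the macrophage marker mean was added to the fit, 1 gene was called higher and 6 lower (median -0.29, pathway 2 lower), and C1qa (-0.058), C1qb (-0.17), C1qc (-0.19) and Cfp (-0.089) changed sign. With the hepatocyte mean 0 were called lower, 2 pathway genes were called higher, and Vtn (0.065) changed sign. With both, 1 was called higher (median -0.17, pathway 1 lower), and C1qa (-0.092), C1qb (-0.13), C1qc (-0.10), Cfp (-0.26), Colec10 (-0.60), Colec11 (-1.29), Fcna (-1.34) and C9 (0.72) changed sign. Of the 24 genes not called, 10, 5 and 14 changed sign in these 3 fits, and of these Colec11 and Fcna alone were called there. Pathway genes called higher were 2 with the intron control covariate and 2 on the 7 low arrays, and 1 was called lower on arrays without Y-linked signal. Of all clusters, 1.26%, 1.62% and 1.48% were called in these fits, in that order. The cause of these shifts was not tested. Alternatives using sex, Y-linked signal, the split by intron control level, or leaving out knockout array 2 and wild type array 5 together were chosen after seeing the data.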
